A study of Mus musculus with 16 samples.

Results

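The comparison described here sets all 8 liver libraries labelled mature against all 8 labelled immature, over both genotypes of the study. All 16 of the 16 libraries of the series enter it, 4 from each of 4 groups, chosen by their labels alone. Mature controls (Mat.Con) and immature controls (Imm.Con) are floxed mice with no Cre. Mature LERKO (Mat.LERKO) and immature LERKO (Imm.LERKO) mice carry Cre and are liver-specific knockouts of Esr1, the gene of oestrogen receptor alpha. The labels name no treatment, and each library is RNA of 1 mouse. No source used here gives the promoter that drives Cre, or how old and of which sex the mice were. The labels do not say whether mature and immature refer to the mouse at the time of knockout or at tissue collection, so stage below means the label. Sample numbers in the titles fall in separate ranges, those of immature mice above those of mature mice, so stage and cohort cannot be told apart.

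The liver is made of hepatocytes, which carry out metabolism and secrete most plasma proteins, and of resident macrophages (Kupffer cells), sinusoidal endothelial cells, stellate cells and bile duct cells. Kupffer cells depend on the growth factor Csf1 and its receptor Csf1r, clear particles from portal blood and make the C1q chains of complement. Hepatocytes burn fatty acids in mitochondria and peroxisomes and turn the product into ketone bodies, under the nuclear receptor Ppara. Sexual maturation changes the steroid and growth hormone signals that reach the liver, and many hepatic cytochrome P450 and major urinary protein genes follow them in rodents.

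No gene passed in either direction. Of 13379 genes tested, 0 were higher and 0 lower in mature liver (0%, adjusted p threshold 0.05, edgeR quasi-likelihood test of the stage term beside a genotype term, Benjamini-Hochberg adjustment over all genes tested), and the smallest adjusted p was 0.35. At an unadjusted p under 0.05 stood 672 genes with positive fold changes (5.02% of those tested), a further 2.61% with negative ones, and 1021 genes (7.63%) in all. Fold changes were positive for 55.3% of genes, with a median log2 fold change of 0.017. For 91.9% of genes the 95% interval of the stage effect lay within 2-fold in both directions. DESeq2, another count model run as an alternative, called 13 genes (0.0972%), 12 higher and 1 lower, several of which are named beside their values below. Limma-voom called 0 genes.

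Promoter stretches of 3 genes from the Kupffer and fatty acid lists are printed first, because those 2 lists hold the largest shares of members at an unadjusted p under 0.05 in 1 direction among the lists with at least 5 tested members. C1qb and C1qc encode chains of complement C1q and lie next to each other on chromosome 4. Fabp1 encodes the liver's cytosolic fatty acid binding protein. The sequences are RefSeq's on GRCm38.p6, read 5′ to 3′ along the gene's strand, and end upstream of the gene as GENCODE vM21 places it. They cover chr4:136886201-136886450 on the reverse strand for C1qb, chr4:136893066-136893164 on the reverse strand for C1qc and chr6:71199629-71199826 on the forward strand for Fabp1. Capitals mark GGAAGT or its reverse complement ACTTCC, letters that many ETS factors bind, in the C1q genes. In Fabp1 they mark TGACCT, the reverse complement of a nuclear receptor half-site. TGACCT also stands in the C1qc stretch, where it is left in small letters.
C1qb: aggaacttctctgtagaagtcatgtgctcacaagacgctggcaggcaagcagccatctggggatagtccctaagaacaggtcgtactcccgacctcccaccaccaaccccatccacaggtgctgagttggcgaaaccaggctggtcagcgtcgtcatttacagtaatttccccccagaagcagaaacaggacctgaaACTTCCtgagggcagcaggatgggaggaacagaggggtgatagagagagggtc
C1qc: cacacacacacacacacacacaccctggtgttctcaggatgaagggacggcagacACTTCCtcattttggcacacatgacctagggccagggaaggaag
Fabp1: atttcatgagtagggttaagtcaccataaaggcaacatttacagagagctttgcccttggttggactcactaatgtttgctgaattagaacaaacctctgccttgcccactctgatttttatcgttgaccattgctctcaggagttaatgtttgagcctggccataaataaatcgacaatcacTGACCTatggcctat
In windows of 250 bases before the RefSeq start, searched on both strands, GGAAGT stood in 8 of the 15 Kupffer list members with a promoter entry (53.3%). It stood in 26.6% of the 10237 tested genes with an entry. TGACCT stood in 5 of 26 fatty acid list members (19.2%) and in 13.5% of tested genes. These motifs were chosen after the genes' values were seen, and a match is a description of letters only.

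The labelled tissue and genotype were checked first. The 5 hepatocyte markers summed to 80560 to 145400 CPM per library (counts scaled to a common library total, after correction for library composition), and Alb, the albumin gene, stood at 61710 to 118700 CPM. Esr1 stood at 66.7 to 110 CPM in mature and 55.3 to 89.0 CPM in immature controls, and at 13.9 to 19.1 and 10.7 to 16 CPM in the LERKO groups. Between stages its log2 fold change was 0.24 (SE 0.12, adjusted p = 0.659, edgeR). Some libraries stood apart. Summed skeletal muscle markers reached 913, 422 and 68.2 CPM in mature control libraries 1, 2 and 4 and 179 CPM in immature LERKO library 4, against 3.02 to 9.38 CPM in the other 12. Mature LERKO library 4 held 19030 CPM of the serum amyloid gene Saa1, where the other 15 libraries held at most 113 CPM, and it had the lowest Alb. Xist, expressed from the inactive X chromosome, stood at 0.48 CPM in immature LERKO library 2 and at 469 to 735 CPM in the other 15, while the Y-linked Ddx3y, Uty, Kdm5d and Eif2s3y were at 0 in all 16. Total counts were 18123974 to 23213905 per library.

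The gene with the smallest p was Csf1, the growth factor of the macrophage lineage. It stood at 11.8, 13.3 and 18 CPM (lowest, median, highest) in mature and 8.83, 10.1 and 12.6 CPM in immature livers. Of the 8 mature libraries 5 lay above the highest immature one, so the stages overlapped. The log2 fold change was 0.48 (SE 0.10, adjusted p = 0.35, edgeR), with 0.37 in controls and 0.59 in LERKO, and DESeq2 called it (adjusted p = 0.0297). The rule that named Csf1 and the genes below required the same sign in both genotypes. Without the 3 libraries richest in muscle transcripts and mature LERKO library 4 the value was again 0.48 (adjusted p = 0.172, edgeR). Csf1 lies on the reverse strand of chromosome 3, from 107741048 to 107760469 (GRCm38).

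Next came genes of blood cells and of the actin cytoskeleton. Was encodes the actin regulator of blood cells that is lost in Wiskott-Aldrich syndrome. Its lowest, median and highest levels were 1.57, 1.95 and 2.32 CPM in mature and 0.908, 1.17 and 1.62 CPM in immature livers, with 7 of 8 mature libraries above every immature one. The log2 fold change was 0.73 (SE 0.15, adjusted p = 0.35, edgeR). Itgal, the alpha chain of the leukocyte integrin LFA-1, stood at 8.87, 10.5 and 11.8 CPM against 5.02, 7.40 and 9.02 CPM, with a log2 fold change of 0.52 (SE 0.11). Here too 7 mature libraries lay above the immature range. Srgap3, a GTPase-activating protein for Rac, stood at 1.68, 4.38 and 5.19 CPM against 0.853, 1.90 and 2.44 CPM, and Tiam2, an exchange factor for Rac, at 6.44, 8.37 and 12.9 CPM against 1.5, 4.18 and 6.53 CPM. Their log2 fold changes were 1.17 (SE 0.24) and 1.13 (SE 0.25), the largest of the named higher genes. The 1 mature library inside the immature range was mature control 4 for both genes.

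The other named genes with higher levels in mature liver serve varied functions. Evc2, a ciliary component of Hedgehog signalling, ranged over 1.93 to 3.61 CPM in mature and 1.19 to 2.21 CPM in immature livers (log2 fold change 0.74, SE 0.15). For the uncharacterized gene 6430548M08Rik the ranges were 4.92 to 8.72 and 2.67 to 5.79 CPM (0.77, SE 0.17). Trak2, which links mitochondria to kinesin, ranged over 22 to 27.9 and 18.1 to 24.1 CPM (0.30, SE 0.07). All of these overlapped between stages. Zfp710, a zinc finger gene, did not: its lowest mature level was 11.5 CPM and its highest immature level 11.1 CPM (0.37, SE 0.08, adjusted p = 0.35, edgeR). Slc41a1, a magnesium transporter outside the naming rule, was the other gene whose stages did not overlap, at 2.91 to 10.5 and 2.13 to 2.89 CPM (0.91, SE 0.22, adjusted p = 0.408, edgeR). These 2 genes are 0.0149% of those tested. Zfp710 and 6430548M08Rik overlap another gene on the same strand, and Was, Srgap3, Evc2 and Tiam2 an antisense one, so their counts may hold reads of those partners.

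DESeq2 called each of these named genes but Trak2 and Slc41a1, together with Tlr8 and Irx1 on the higher side and Scp2 on the lower. Tlr8, an endosomal RNA sensor, ranged over 0.762 to 1.43 CPM in mature and 0.301 to 0.981 CPM in immature livers (log2 fold change 1.05, SE 0.22, adjusted p = 0.35, edgeR). Irx1, a homeobox gene, ranged over 1.19 to 2.55 and 0.452 to 1.34 CPM (0.93, SE 0.21). Scp2, a carrier of sterols and branched fatty acids in peroxisomes, had 1448, 1593 and 1906 CPM against 1721, 1938 and 2165 CPM, with 7 of 8 mature libraries below every immature one. Its edgeR log2 fold change was -0.27 (SE 0.08, adjusted p = 0.425), and DESeq2 gave -0.29 (adjusted p = 0.0297). Scp2 overlaps Podn on the same strand. Tlr8, Irx1 and Scp2 were named after their values were seen.

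**Figure D1:**
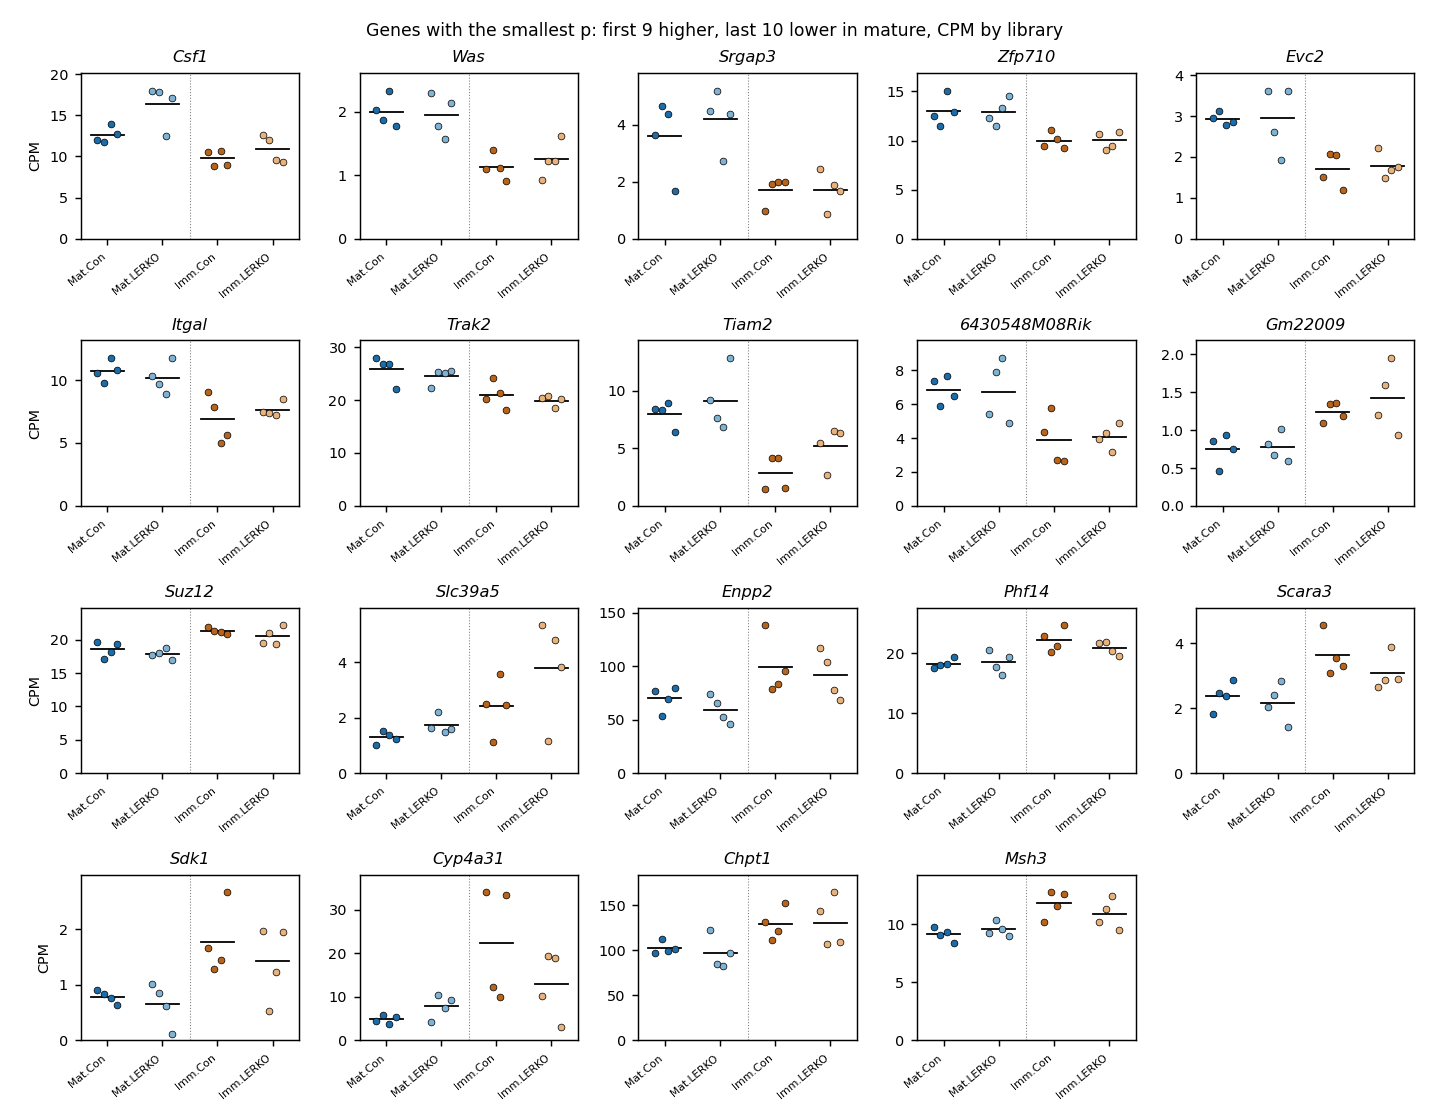
Level of 19 of the genes with the smallest p (CPM, linear axis from 0) in every library, by group; points are single libraries and bars are group means over 4. The first 9 genes had higher and the last 10 lower levels in mature mice, and apart from Zfp710 each has at least 1 mature library inside the immature range or the reverse.

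On the lower side the named genes ran from a small RNA to metabolic enzymes. Gm22009, a predicted gene of 0.465 to 1.01 CPM in mature and 0.931 to 1.95 CPM in immature livers, lies inside Kpna4 on the same strand, so its reads may be those of Kpna4 (log2 fold change -0.79, SE 0.19, adjusted p = 0.413, edgeR). Suz12, a core subunit of Polycomb repressive complex 2, stood at 16.9, 18.1 and 19.7 CPM against 19.4, 21.1 and 22.2 CPM. Of the 8 mature libraries 7 lay below every immature one, although the difference itself was small, at -0.20 (SE 0.05). Phf14, a PHD finger protein, behaved likewise, at 16.4 to 20.5 and 19.6 to 24.7 CPM (-0.23, SE 0.06). Msh3, a DNA mismatch repair gene, ranged over 8.37 to 10.4 and 9.50 to 12.8 CPM (-0.27, SE 0.08).

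Larger differences with wide immature ranges were seen for a transporter and a P450. Slc39a5, a zinc transporter, stood at 1.02, 1.5 and 2.19 CPM in mature and 1.14, 3.03 and 5.34 CPM in immature livers (log2 fold change -1.02, SE 0.27, adjusted p = 0.425, edgeR). Cyp4a31 belongs to the fatty acid hydroxylases induced by Ppara and stood at 3.62, 5.60 and 10.5 CPM against 2.94, 15.6 and 34.0 CPM (-1.45, SE 0.40), so that 5 of 8 immature livers lay above all mature ones and 1 below them. It has close relatives whose reads the counting could share. Enpp2, the secreted enzyme autotaxin that makes lysophosphatidic acid, stood at 45.7, 67.7 and 79.8 CPM against 67.9, 89.4 and 138 CPM (-0.56, SE 0.15). Chpt1, the last step of phosphatidylcholine synthesis from choline, ranged over 83.1 to 123 and 107 to 165 CPM (-0.38, SE 0.11). Scara3 (-0.55, SE 0.15) and the adhesion gene Sdk1 (-1.14, SE 0.31) were below 5 CPM in every library.

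The Kupffer cell list had the highest share of members at a small p among lists with at least 5 tested members. Of 19 markers, all tested, 18 had positive fold changes and 14 an unadjusted p under 0.05, all 14 higher in mature livers, where 5.02% of all tested genes did so. The median log2 fold change was 0.43, against 0.017 over all genes, and 0 members passed the adjusted threshold in edgeR. More Kupffer cells and more RNA per cell in mature livers cannot be told apart in whole liver. The summed markers stood at 651, 725 and 926 CPM (lowest, median, highest) in mature and 460.8, 576 and 724 CPM in immature livers. The stages overlapped between 651 and 724 CPM.

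Csf1r, the receptor for Csf1, stood at 31.5, 42.7 and 51.8 CPM in mature and 20.2, 28.4 and 39.5 CPM in immature livers, with 4 of 8 mature libraries above the immature range (log2 fold change 0.56, SE 0.15, adjusted p = 0.425, edgeR). The complement genes whose promoters are printed above varied in the same way. C1qb stood at 32.1, 39.1 and 60.9 CPM against 20.7, 31.1 and 40.8 CPM, and C1qc at 31.6, 41.3 and 54.7 CPM against 21.2, 30.7 and 39.0 CPM. Their log2 fold changes were 0.43 (SE 0.15) and 0.43 (SE 0.14), and that of C1qa, the first chain, was 0.41 (SE 0.12). Vsig4, a complement receptor of resident macrophages, had 0.47 (SE 0.15). Clec4f, a lectin of mouse Kupffer cells, stood at 67.7, 78.7 and 112 CPM against 39.1, 61.9 and 78.6 CPM (0.41, SE 0.14). Slc40a1, the iron exporter, which hepatocytes and other cells also express, had a negative fold change instead (-0.12, SE 0.12).

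Both genotypes, which share no library, had positive medians for this list. In controls the median was 0.50 with 17 of 19 members positive and 11 at an unadjusted p under 0.05, and in LERKO it was 0.35 with 18 positive and 5 under 0.05. The shares of all tested genes with a positive fold change at that p were 7.56% in controls and 3.09% in LERKO. The highest sum, 926 CPM, came from mature LERKO library 4, the one with the most Saa1. Without it 12 members were under 0.05, and without it and the 3 libraries with most muscle transcripts 13, with a median of 0.43. Leaving out immature LERKO library 2, where Xist was near 0, gave 11. Among markers of other cells, T and NK cell genes had a median of 0.31 (9 of 12 positive; 0.40 in controls, 0.11 in LERKO) with 0 members under 0.05. Endothelial markers had a median of 0.33 (18 of 20 positive; 0.68 in controls, -0.04 in LERKO), and stellate cell and matrix markers 0.19 (19 of 20 positive; 0.58 and -0.26). Their summed levels were lowest in mature LERKO library 4, at 265 and 207 CPM, where the Kupffer sum was highest.

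**Figure D2:**
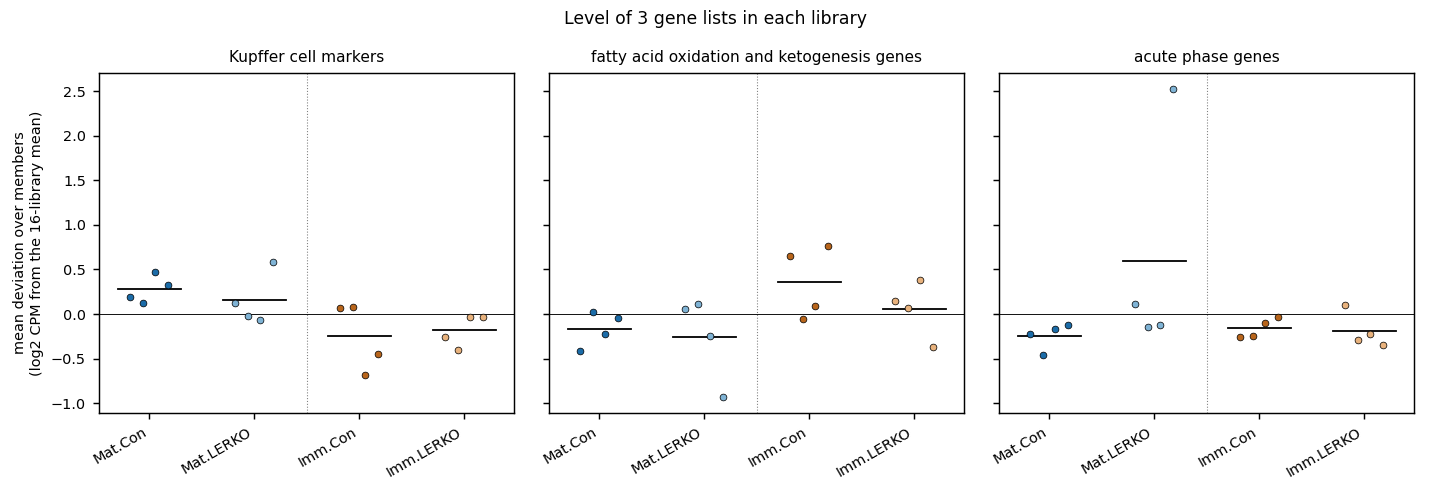
Mean deviation of the members of 3 lists from their 16-library mean (log2 CPM, prior count 2) in every library, by group; points are libraries, bars group means over 4. Kupffer levels sit above 0 in 6 of 8 mature and in 2 of 8 immature libraries, fatty acid oxidation levels tend the other way, and the acute phase level of mature LERKO library 4 is 2.53 where the other 15 lie between -0.46 and 0.11.

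The fatty acid oxidation and ketogenesis list had mostly negative values. Of its 34 members, all tested, 32 had negative fold changes and 21 an unadjusted p under 0.05, all 21 lower in mature livers, where 2.61% of all tested genes did so. Their median was -0.33, and 0 members passed the adjusted threshold in edgeR. The 2 members with positive values were Ppara, the receptor itself (0.08), and Cpt1a, which admits fatty acids to mitochondria (0.04).

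Fabp1 stood at 2390, 3927 and 4535 CPM in mature and 3412, 5767 and 7277 CPM in immature livers, with 5 of 8 immature libraries above all mature ones (log2 fold change -0.49, SE 0.16, adjusted p = 0.478, edgeR). Decr1, which oxidizes unsaturated fatty acids, stood at 119, 175 and 199 CPM against 155, 219 and 330 CPM (-0.44, SE 0.14, adjusted p = 0.469, edgeR). Acat1, the mitochondrial acetyl-CoA acetyltransferase that both makes and uses ketone bodies, was no list member and was read after its values were seen. It stood at 299, 468 and 552 CPM against 503, 604 and 889 CPM (-0.47, SE 0.13). The largest differences among members were those of Ppara-induced genes, with -1.19 for Cyp4a14, -1.19 for Cyp4a10 and -1.02 for Vnn1. Vnn1, a pantetheinase, ranged over 40.8 to 80.9 CPM in mature and 31.9 to 243 CPM in immature livers, so the immature libraries lay on both sides of the mature ones.

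The median of the list was -0.46 in controls, with 20 members lower at an unadjusted p under 0.05, and -0.23 in LERKO, with 1. The shares of all tested genes lower at that p were 2.29% in controls and 1.84% in LERKO. Members with negative fold changes numbered 30 of 34 in LERKO. The difference between genotypes was tested per gene over all genes only, where 0 passed. Immature controls were split: the list's mean deviation from the 16-library mean was 0.65 and 0.77 in libraries 1 and 4. In immature control libraries 2 and 3 it was -0.06 and 0.09, inside the mature range (-0.93 to 0.11). Immature control libraries 1 and 4 also had the lowest lipogenesis levels of the 16 (-1.198 and -1.085). Without immature control library 4, the highest of the 16, 12 members were under 0.05, and without mature control library 1 or 3, 14 each. Without the 3 muscle-rich libraries and mature LERKO library 4, the lowest of the 16, the count was 15 and the median -0.35. Without immature LERKO library 2 it was 18. When controls alone were fitted 27 members were under 0.05, and when LERKO alone were fitted 0.

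**Figure D3:**
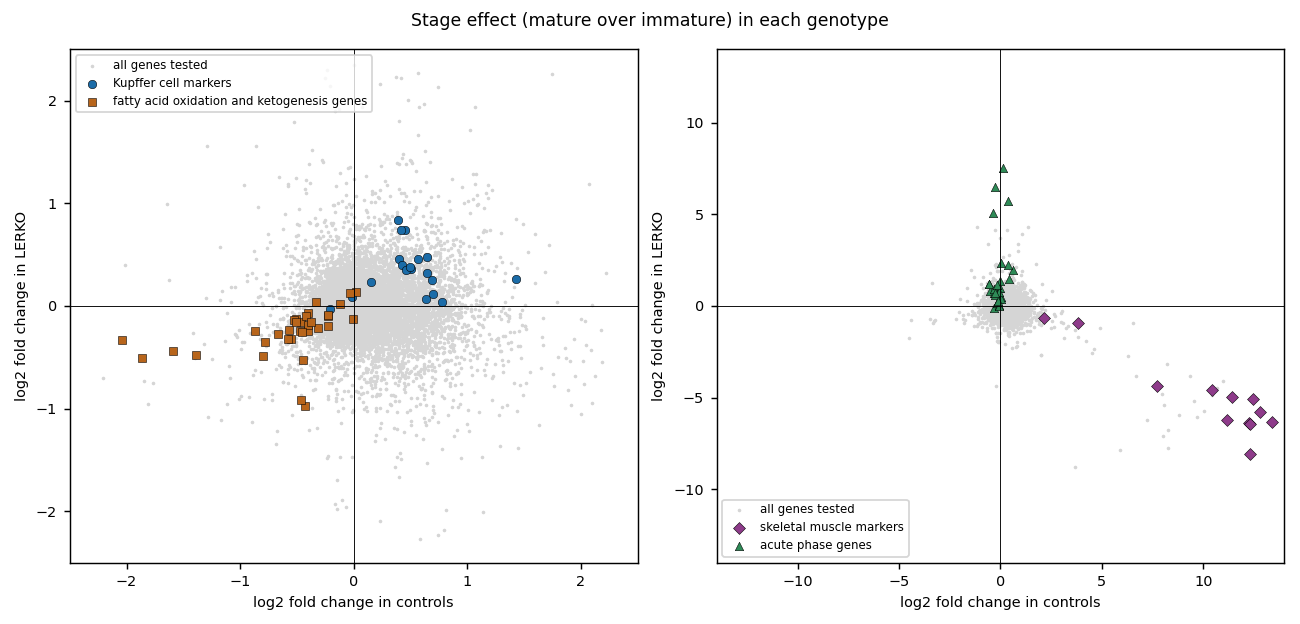
Stage effect (log2 fold change, mature over immature) of each tested gene in controls (horizontal) and LERKO (vertical); grey points are all genes, and the left panel has narrower axes, beyond which some genes lie. Kupffer genes sit mostly in the upper right and fatty acid oxidation genes in the lower left, while muscle genes (right panel) differ in controls and in LERKO in opposite directions and acute phase genes in LERKO; folds of muscle genes with libraries at 0 depend on the fit's prior count.

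Ribosomal, respiratory and proteasome genes differed little in size but nearly all in 1 direction. Of 59 cytosolic ribosomal protein genes 58 had negative fold changes (median -0.15), of 73 tested nuclear-encoded respiratory chain genes 72 (median -0.13), and of 31 proteasome genes 31 (median -0.10). Among all tested genes 44.7% were negative. Those at an unadjusted p under 0.05 were 2, 6 and 0, and the most negative ribosomal value was -0.34. Respiratory genes were negative for 58 of 73 in controls and 73 of 73 in LERKO. With scaling by library size alone the medians were -0.13, -0.11 and -0.08, and with RLE factors (the scaling of DESeq2) -0.17, -0.15 and -0.12. Without immature LERKO library 3 the ribosomal median was -0.08 and the respiratory one -0.07. The most abundant members showed little of it. Rps2, of the small ribosomal subunit, stood at 403 to 498 and 427 to 553 CPM (-0.06, SE 0.07), and Atp5b, of the ATP synthase, at 893 to 1146 and 1022 to 1205 CPM (-0.04, SE 0.07). All 13 mitochondrially encoded protein genes are listed at 0, so those subunits could not be compared.

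Genes tied to sexual maturity gave mixed values. Of 11 tested steroid and thyroid receptors 6 were positive (median 0.01). Oestrogen-responsive genes had 6 of 17 positive (median -0.07) with 0 at an unadjusted p under 0.05.

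The growth hormone and IGF axis had 13 of 20 positive (median 0.06). Igf1, the circulating growth factor made by hepatocytes, stood at 566, 696 and 803 CPM against 536, 661 and 788 CPM, and differed by 0.05 on the log2 scale (SE 0.09). Its 95% interval lay within 2-fold. Socs3, a feedback inhibitor of cytokine and growth hormone receptors, ranged over 14 to 58.2 and 8.57 to 22.1 CPM (0.96, SE 0.27, adjusted p = 0.425, edgeR). Its log2 fold change was 0.44 in controls and 1.48 in LERKO, and it was highest in mature LERKO libraries 4 and 1 (58.2 and 51.1 CPM). Socs3 is also a member of the acute phase list described below.

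Sex-biased liver genes scattered widely. Male-biased genes had 12 of 17 negative (median -0.30) and female-biased genes 18 of 31 (median -0.08). The male-biased median was 0.04 in controls, with 10 of 17 positive, and -0.49 in LERKO, with 14 negative. Cyp2d9, a male-biased steroid hydroxylase with close relatives, stood at 20.0 to 88.4 and 54.4 to 105 CPM (-0.86, SE 0.25), with -0.24 in controls and -1.48 in LERKO. A1bg, a female-biased plasma protein gene, ranged over 15.8 to 195 and 4.10 to 32.1 CPM (1.61, SE 0.55), with 0.44 in controls and 2.77 in LERKO. Hsd3b5, a male-biased steroid enzyme, was highest in immature LERKO library 2, at 30.3 CPM, the library with almost no Xist. It also stood at 16.3 CPM in immature control library 2 and 10.9 CPM in mature control library 1. Xist was 718 and 722 CPM in those libraries. Elsewhere Hsd3b5 was at most 3.98 CPM. Without immature LERKO library 2 the median of the male-biased list was -0.12 and that of the female-biased list -0.07.

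Postnatal maturation genes, a list of transcripts that the liver shuts down after birth and of regulators such as Zbtb20 and Zhx2 that stay on, had a small median as well. Of the 18, 10 were tested, Afp, Dlk1 and others being too low, and 8 of these were positive (median 0.08). H19, a fetal noncoding RNA, stood at 1.21, 5.47 and 26.4 CPM in mature and 1.86, 3.66 and 16.5 CPM in immature livers (0.55, SE 0.65), with 1.89 in controls and -0.82 in LERKO. Its neighbour Igf2 stood at 0.296 to 1.22 and 0.104 to 1.02 CPM (0.07, SE 0.35).

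In several lists 1 or a few libraries stood apart. Acute phase genes, encoding plasma proteins that hepatocytes secrete in inflammation, had 25 of 29 positive and a median of 0.34 in the pooled fit. Without mature LERKO library 4 the median was -0.02. The median was -0.10 in controls and 0.96 in LERKO. Neutrophil markers (4 of 10 tested) summed to 89.1 CPM in that library and to at most 6.80 CPM in the other 15. Their pooled median was 1.52, and 0.42 without that library. Of the 4, 3 had an unadjusted p under 0.05 on the higher side, where 5.02% of all tested genes did so. Mmp9, a secreted protease, had log2 fold changes of 1.01 in controls and 1.02 in LERKO. Csf3r, the receptor of granulocyte colony stimulating factor, had 0.77 and 0.59. The other tested markers differed more between genotypes, with 0.30 in controls and 4.12 in LERKO for S100a8 and -0.04 and 3.72 for S100a9. Adipocyte markers, all 4 tested ones negative and 0 under 0.05, had a pooled median of -0.94, with -0.42 in controls and -1.64 in LERKO. Muscle markers were positive for 12 of 12 in the pooled fit, for 12 in controls and for 0 in LERKO, beside the high sums of the libraries named above. Cell cycle genes had a pooled median of -0.02, with 0.57 in controls and -0.23 in LERKO, and lipogenesis genes -0.03, with 0.50 and -0.49. Scd1, the fatty acid desaturase, stood at 1694, 6191 and 9497 CPM in mature and 507, 3221 and 25700 CPM in immature livers (0.31, SE 0.64), so that its immature range enclosed the mature one.

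The medians of further lists ranged from -0.44 to 0.23. B cell markers had a median of 0.23 (4 of 7 positive), immediate early genes 0.18 (12 of 19 positive) and urea cycle and periportal genes 0.17 (11 of 15 positive). Cholesterol synthesis genes had a median of 0.14 (19 of 25 positive, 0 under 0.05), xenobiotic metabolism genes -0.18 (25 of 33 negative, 2 under 0.05 lower), and bile duct markers -0.44 (8 of 9 negative, 0 under 0.05). Interferon-stimulated genes (0.02), circadian clock genes (0.04), bile acid genes (-0.01), heat shock genes (0.05), TGF-beta pathway genes (0.08), pericentral genes (0.03) and spliceosome genes (0.02) had medians within 0.10 of 0.

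**Figure D4:**
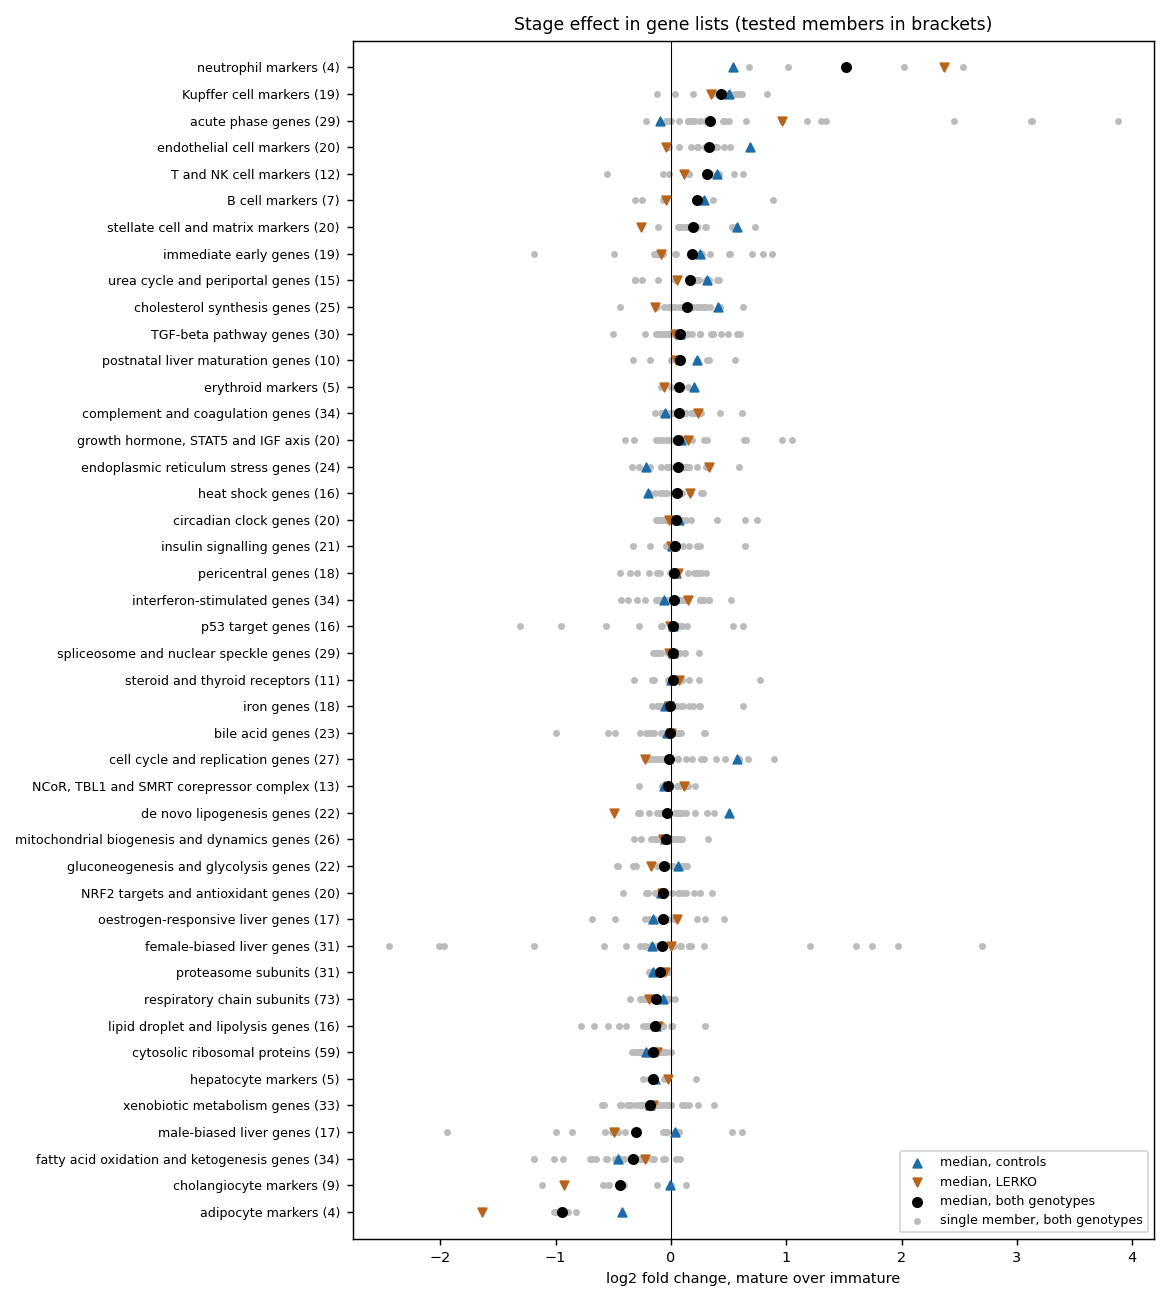
Stage effect (log2 fold change, mature over immature) in each gene list with at least 4 tested members, ordered by the pooled median; grey points are single members in both genotypes, black points pooled medians, and triangles the medians in controls (up) and LERKO (down). The Kupffer and fatty acid oxidation lists have all 3 medians on 1 side of 0. So have many other lists, among them T and NK cell, xenobiotic, ribosomal, respiratory and proteasome genes. The short neutrophil and adipocyte lists at the ends do as well. Acute phase, stellate cell and lipogenesis medians differ in sign between genotypes. Muscle markers are left out because some libraries are at 0.

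Over all genes and the full set of libraries, the stage effects in controls and in LERKO had little in common. The genotypes share no library. Stage effects had the same sign in both for 51.2% of the 13379 genes, with a Spearman correlation of 0.01 across genes, which are not independent. Of the 1317 genes at an unadjusted p under 0.05 in controls, 52.9% had the same sign in LERKO. Genes under 0.05 in both numbered 86, and 56 of these had the same sign. Csf1, Was, Zfp710 and Srgap3 are among them, but the rule that named them required the same sign. Neither genotype alone had a gene past the adjusted threshold when the groups shared 1 fit (smallest adjusted p 0.129 in controls and 0.951 in LERKO, edgeR). No gene passed the test of the difference between genotypes either (0 of 13379, smallest adjusted p = 0.566, edgeR), with 6.35% at an unadjusted p under 0.05. Without the 3 muscle-rich libraries and mature LERKO library 4, which leaves 12, 61.9% of genes had the same sign and the correlation was 0.34. Of 1014 genes under 0.05 in controls, 83.3% then had the same sign in LERKO.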

How the data were processed

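Per the labels' protocols, liver RNA of single mice was made into directional, paired-end mRNA libraries. STAR, R, limma and mm10 appear in the submitters' processing notes. Their roles, the counting program and its handling of strand and shared reads: not given in the sources used here. A table of 35502 genes by 16 libraries was deposited by the authors. In 11 columns all deposited values are whole-number counts. In 5 columns 10 values of 2 genes are not whole, so these deposited values are treated as estimated counts and were rounded. Total counts were 18123974 to 23213905 per library, and the most alike pair of libraries differed by far more than sampling noise (chi-square per degree of freedom 13.6).

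Genes were kept by filterByExpr (minimum count 10, total 15), scaled by TMM factors (0.852 to 1.07) and tested in edgeR 4.0.16 (R 4.3.3) with glmQLFit and glmQLFTest, model genotype plus stage. All p-values were adjusted over 13379 genes by Benjamini-Hochberg. Each standard error is |log2 fold change| over the root of F. The effects within each genotype and their difference come from 1 fit with a coefficient for each group. The common biological coefficient of variation was 22.2%. The script was tested on simulated data. Alternatives were DESeq2 1.42.0, limma-voom 3.58.1 with and without sample quality weights, a robust fit, RLE factors, library size alone, no filter, 1 CPM in 8 libraries, the mean of both genotypes' effects, no genotype term, each genotype alone, 3 other thresholds and each library left out. Leaving out libraries in doubt was added after the data were seen.

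The groups compared, the gene lists and the motifs were chosen with earlier results of these data known. Named genes are the 10 in each direction with the smallest p, of those with the same sign in both genotypes. They also average 0 or more on the log2 CPM scale. The 2 most abundant members of a list could be named as well. Some genes that the rule or DESeq2 picked are left out of the text. The text marks those picked later. The further genes given for the Kupffer, fatty acid, growth hormone, sex-biased and maturation lists were picked with their values in view. Of the gene identifiers 35465 matched GENCODE vM21 on GRCm38 (mm10), which gave positions and overlapping genes. Replicate numbers follow accession order and are names alone.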

Additional observations from a re-analysis of the deposited data

Results flagged for a closer look

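Single libraries far from the other 3 of their group were looked for in 302 group levels of named genes and marker sums (Dixon's test at the 95% level for 4 samples). It marked 27, where chance alone gives about 1 in 20. All values are CPM.

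Mature LERKO library 4 accounted for 8 of them. It was high in Saa1 (19000, others 25.5 to 94.4), S100a8 (26.7, others at most 1.32), summed neutrophil markers (89.1), summed bile duct markers (70.4) and the Kupffer gene Clec4f (112, others 67.7 to 73.7). It was low in Cdh5, an endothelial cadherin (12, others 19.4 to 20.9), Acat1 (299, others 481 to 514) and Atp5b (893, others 1080 to 1110). In the same group Csf1 was low in library 3 (12.5, others 17.1 to 18), Trak2 in library 1 (22.3) and Scd1 in library 2 (1690, others 5800 to 6340).

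Immature LERKO library 4 was high in Scd1 (25700, others 1890 to 4550), H19 (16.5), Smtn, a smooth muscle gene (8.33), Itgal (8.47) and summed skeletal muscle markers (179). Immature LERKO library 2 was high in Hsd3b5 (30.3, others at most 1.95) and in summed adipocyte markers (38.0), and library 3 in the proteasome gene Psmb6 (172, others 116 to 119). Among immature controls, Srgap3 was low in library 1 (0.985, others 1.91 to 2.01), Hsd3b5 was high in library 2 (16.3), and Rps2 (553) and summed adipocyte markers (51.1) were high in library 4. Among mature controls, Scp2 was high in library 4 (1660, others 1510 to 1530), and library 1 was high in Myh4, a fast muscle myosin (132, others at most 4.93), and Saa1 (33.7) and low in summed B cell markers (61.5).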

How the results depend on the processing

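No paired analysis was possible because the labels give no replicate numbers that groups share. The count of genes past the adjusted threshold was 0 in each of the 16 fits without 1 library (smallest adjusted p 0.0626 to 0.708). It was 12 higher and 1 lower in DESeq2, 6 higher when controls alone were fitted (Csrp1, Atp11a, Col6a2, Smtn, Col14a1 and Msn, adjusted p = 0.0463 each, edgeR) and 1 higher without the 4 libraries in doubt (Smtn, 0.70, adjusted p = 0.0377, edgeR). Genes higher at an unadjusted p under 0.05, 672 as reported, were 1297 with quality weights, 1360 in controls alone, 195 in LERKO alone, 1015 without the 4 libraries, and 524 to 1061 without 1 library (immature control 4 or LERKO 1, and immature LERKO 4). Those lower were 560 in DESeq2, 151 by library size, 747 in controls alone, 121 in LERKO alone, 626 without the 3 muscle-rich libraries, 653 without the 4, and 206 to 605 without 1 (immature control 4 and immature LERKO 4). The cause was not tested. Kupffer members under 0.05 were 5 in LERKO alone and 10 to 15 without 1 library, and fatty acid members 0 and 12 to 26.

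Some fold changes, none of them past the adjusted threshold, changed sign. In LERKO alone these were Bgn (-0.12), Ccna2 (-0.14), Eng (-0.052), H19 (-0.81), Igf2 (-0.24) and Scd1 (-0.86), and in controls alone Igf1 (-0.10), Mup3 (0.021), Saa1 (-0.29) and Xist (-0.094). With quality weights they were Atp5b (0.00051), Cyp2a5 (0.11) and Igf1 (-0.0036), without the 3 libraries Igf2 (-0.13), and without the 4 Atp5b (0.033), H19 (-0.044), Igf2 (-0.021) and Saa1 (-0.27). Leaving out 1 library gave -0.18 to 0.020 for Cyp2a5, -0.0036 to 0.10 for Igf1, -0.12 to 0.19 for Igf2, -0.19 to 4.07 for Saa1 and -0.085 to 0.24 for Xist. Genes averaging under 1 CPM, such as Tlr8 and Igf2, rest on few reads.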

Other observations

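Single members of some lists had a small p, with 0 past the adjusted threshold in edgeR. Over all tested genes 5.02% were higher and 2.61% lower at an unadjusted p under 0.05. Of 30 tested TGF-beta pathway genes 4 were higher and 1 lower at an unadjusted p under 0.05, among them Smad6, an inhibitory Smad (log2 fold change 0.57), Acvr2b, an activin receptor (0.49), and the ligand gene Tgfb1 (0.44). Of 34 interferon-stimulated genes 4 were higher and 1 lower, led by the transcription factor Irf1 (0.52) and by Oasl2 (0.33). Of 22 gluconeogenesis and glycolysis genes 0 were higher and 4 lower, with Foxo1, the insulin-regulated transcription factor, at -0.33, Gpd1 at -0.46 and Pck1, the control enzyme of gluconeogenesis, at -0.31. Of 16 p53 targets 3 were lower, with Cdkn1a, a cell cycle inhibitor, at -1.31 and Trp53inp1 at -0.56. These genes were chosen after their values were seen.

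Cxcl1, a neutrophil chemokine, was read after its values were seen. It ranged over 10.7 to 84.4 CPM in mature and 6.56 to 14.3 CPM in immature livers. Its level lay above the immature range in 5 of 8 mature libraries (pooled log2 fold change 1.46, SE 0.36, adjusted p = 0.413, edgeR). The mature median was 15.7 CPM, and only mature LERKO libraries 4 and 1 stood far above it (84.4 and 70.6 CPM). The log2 fold change was 0.75 in controls and 2.13 in LERKO. Without mature LERKO library 4 the pooled value was 1.18.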
